A study of Mus musculus with 12 samples.

Results

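The 10 genes described here encode proteins that license and start DNA replication: Mcm2, Mcm3, Mcm4, Mcm5, Mcm6 and Mcm7, the 6 subunits of the replicative helicase, its loaders Cdt1 and Cdc6, the activation factor Mcm10, and the sliding clamp Pcna. They were taken by gene symbol from the deposited count table, and all 10 of 10 were found among its 23336 genes. Each also passed the filter on low counts that left 12814 genes for testing. The genes lie on 7 chromosomes, none of them X or Y.

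In G1 phase the origin recognition complex recruits Cdc6 and Cdt1, which close the ring of 6 MCM proteins around DNA. Geminin, encoded by Gmnn, blocks Cdt1 after S phase begins, so that each origin is licensed once per cycle. Mcm10 helps to turn the loaded ring into a working helicase, and Pcna then tethers DNA polymerases to the template. Genes of this machinery are known targets of E2F transcription factors. Embryonic stem cells cycle fast with a short G1 phase and are known for abundant licensing factors.

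The study compared mouse embryonic stem cells (ESCs) of 3 lines: female wild-type (WT) Pgk12.1, a female RlimKO line, and male WT E14. Undifferentiated cells were kept with LIF. Differentiated cells had spent 3 days as embryoid bodies after LIF was withdrawn and 6 further days in culture with 7.5% oxygen. Each of the 6 groups of line and state held 2 libraries, and the labels give C57BL/6 as the strain of all 12. Each combination of sex and genotype is 1 line, so a difference of sex or genotype cannot be told apart from a difference between lines. The labels do not say whether the 2 libraries came from separate cultures, so every p-value here reflects the spread among the deposited libraries alone, and that spread may be technical.

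Libraries held 2011919 to 5401940 counts in genes, and the 10 genes had 1348 to 8886 of them. The ribosomal RNA precursor Rn45s took 6.36% to 67.7% of the counts. Its share was lowest in differentiated male replicate 2 and highest in differentiated RlimKO replicate 1. The differentiated male libraries also differed most from each other, with a chi-square per degree of freedom of 24.8 against 1.85 to 2.32 in the other 5 groups. In the sample titles, differentiated male replicate 2 has a number apart from the runs of numbers of the other libraries. What these numbers stand for is not known here, and all male values after differentiation rest on this pair. Rlim, the gene named in the knockout, had 159.96 and 150.04 CPM (counts per 1000000 of scaled library size) in the undifferentiated RlimKO libraries, against 212 to 282 CPM in the other undifferentiated ones. After differentiation the RlimKO libraries had 290.1 and 299 CPM, against 258 to 275 CPM in the rest. The labels do not give the deleted part of Rlim, so counts over the whole gene do not check the label, and the group is called RlimKO-labelled below.

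Licensing genes fell on differentiation in all 3 lines. In edgeR's quasi-likelihood test with Benjamini-Hochberg adjustment over all tested genes, 10 of 10 fell in WT females, 9 of 10 fell in RlimKO-labelled cells and 10 of 10 fell in males, at an adjusted p below 0.05. None rose. Of all tested genes, 22.2%, 21.6% and 25.4% fell in these comparisons and 26.5%, 26.4% and 28.7% rose. The median log2 fold change of the 10 genes was -1.57 (WT females), -1.23 (RlimKO-labelled) and -2.03 (males), against 0.09, 0.10 and 0.05 over all tested genes. For every one of the 10 genes, all 6 undifferentiated libraries lay above all 6 differentiated ones. The share of all tested genes with such a separation was not computed, so it is not called particular to the licensing genes. In bulk RNA, fewer cells that carry a transcript and less of it per cell cannot be told apart.

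**Figure D1:**
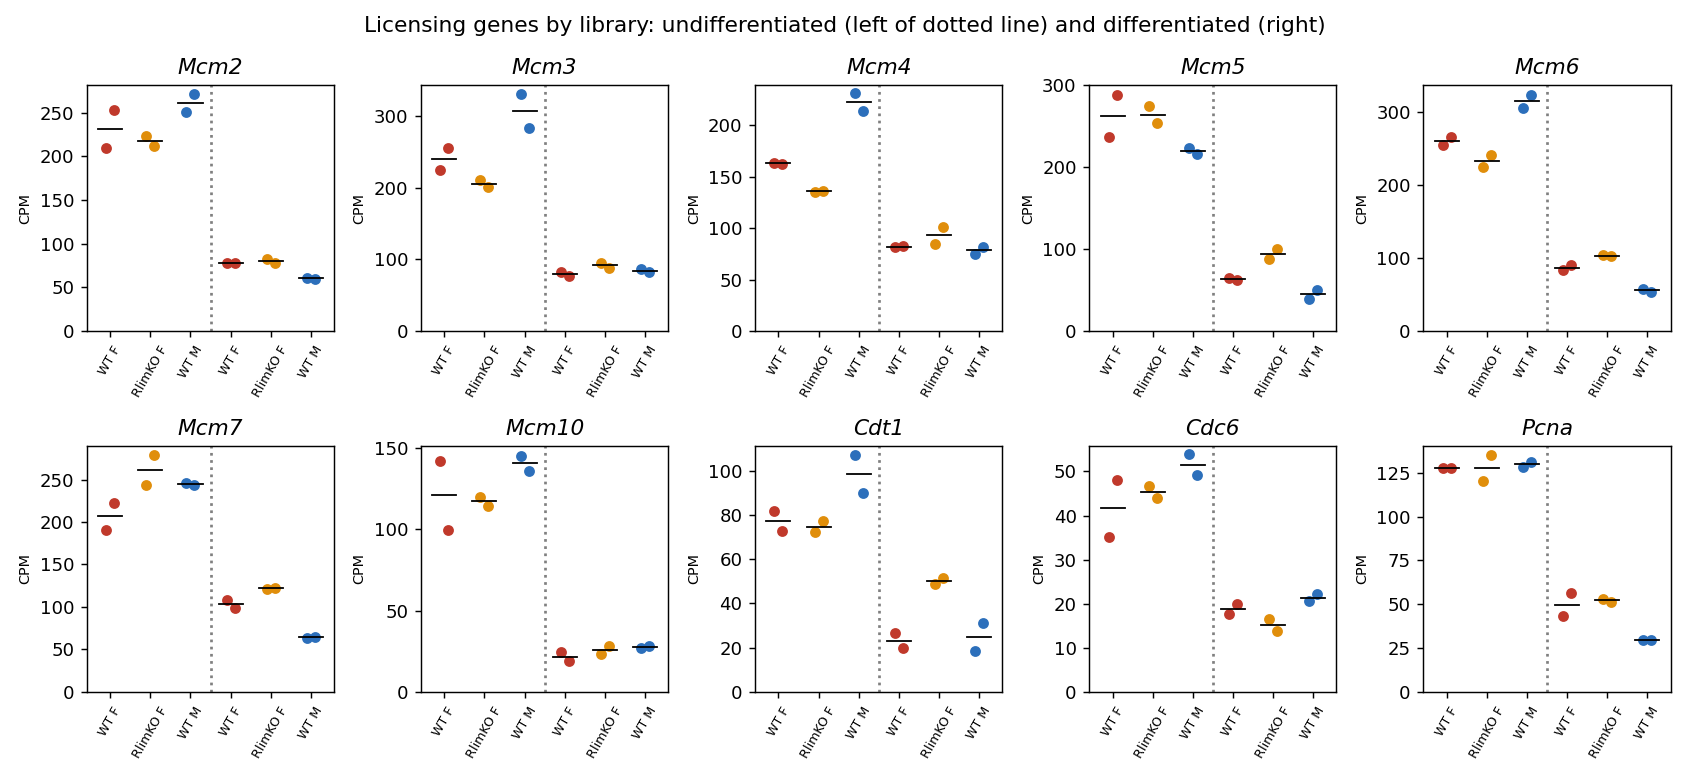
Level of each licensing gene in CPM (linear axes from 0) in every library; points are libraries, black bars are means of 2, F is female and M is male. In each panel all points left of the dotted line lie above all points to its right, and Cdt1 is higher in the differentiated RlimKO-labelled pair than in the other differentiated pairs.

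The 6 helicase subunits are taken first. Mcm6 (chromosome 1: 128331590 to 128359664, mm10) had the highest median of the subunits in undifferentiated cells, where WT females had 255 and 266 CPM, RlimKO-labelled cells 225 and 241 CPM, and males 306 and 324 CPM. After differentiation it stood at 83.3 and 90.4 CPM, 103.6 and 102.7 CPM, and 58.1 and 53.3 CPM in the same order. The males were thus highest before and lowest after differentiation, and neither male pair overlapped a female pair. The log2 fold change of Mcm6 on differentiation was -1.59 ± 0.14 in WT females (edgeR adjusted p = 4.45e-07). It was -1.18 ± 0.14 in RlimKO-labelled cells (edgeR adjusted p = 7.81e-06) and -2.50 ± 0.14 in males (edgeR adjusted p = 4.96e-09). In all fold changes here ± is an SE from the fit of all 12 libraries, with 2 per group. It is not the spread within a pair.

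Mcm5 (chromosome 8: 75109569 to 75128439) had 237 and 288 CPM in undifferentiated WT females, 274 and 254 CPM in the RlimKO-labelled line and 223 and 216 CPM in males. After differentiation it had 64.7 and 62.5 CPM, 88.2 and 99.97 CPM, and 39.5 and 49.8 CPM. The RlimKO-labelled pair was the highest and the male pair the lowest after differentiation, without overlap. The log2 fold changes of Mcm5 were -2.04 ± 0.16, -1.48 ± 0.16 and -2.29 ± 0.16 in WT female, RlimKO-labelled and male cells (edgeR adjusted p = 2.06e-07, 3.69e-06 and 4.27e-08).

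Mcm7 (chromosome 5: 138164583 to 138172422) overlaps Cops6 and Ap4m1 on the other strand. The library type does not mark strand, so reads in the shared stretches could not be assigned with certainty. It had 191 and 222 CPM in undifferentiated WT females, 243 and 279 CPM in the RlimKO-labelled line and 246 and 244 CPM in males. In differentiated cells it had 109 and 98.8 CPM, 121 and 123 CPM, and 63.6 and 65.1 CPM. The differentiated male libraries thus had the least Mcm7 of all. Mcm7 fell in every line, with log2 fold changes of -0.99 ± 0.14, -1.10 ± 0.14 and -1.93 ± 0.14 (edgeR adjusted p = 5.08e-05, 2.21e-05 and 7.24e-08).

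Mcm4 (chromosome 16: 15623897 to 15637400) differed little between the differentiated lines. It had 163 and 163 CPM in undifferentiated WT females, 135 and 136 CPM in the RlimKO-labelled line and 231 and 214 CPM in males, and no pair overlapped another. After differentiation the values were 81.7 and 82.4 CPM, 84.5 and 101 CPM, and 75.3 and 81.4 CPM. Log2 fold changes of Mcm4 were -0.99 ± 0.14 in WT females, -0.54 ± 0.15 in RlimKO-labelled cells and -1.50 ± 0.14 in males (edgeR adjusted p = 5.62e-05, 0.00733 and 6.71e-07). The middle value was the smallest fall that passed the test, and it did not pass without differentiated RlimKO replicate 1 (-0.41, edgeR adjusted p = 0.0856).

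Mcm2 (chromosome 6: 88883474 to 88898780) and Mcm3 (chromosome 1: 20802968 to 20820312) completed the ring. Mcm2 ranged from 209 over a median of 237 to 271 CPM in the 6 undifferentiated libraries and from 59.9 over 78.0 to 82.3 CPM in the differentiated ones. Its log2 fold changes were -1.56 ± 0.14, -1.44 ± 0.15 and -2.11 ± 0.14 in WT female, RlimKO-labelled and male cells (edgeR adjusted p = 8.58e-07, 2.08e-06 and 3.06e-08). Mcm3 ranged from 200.3 over 240.1 to 331 CPM before and from 77.1 over 84.4 to 94.6 CPM after differentiation. For Mcm3 they were -1.59 ± 0.15, -1.17 ± 0.15 and -1.86 ± 0.14 (edgeR adjusted p = 7.98e-07, 1.63e-05 and 9.74e-08). Unlike those of Mcm5, Mcm6 and Mcm7, the differentiated male values of Mcm3, 86.3 and 82.4 CPM, did not lie below those of both female pairs.

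**Figure D2:**
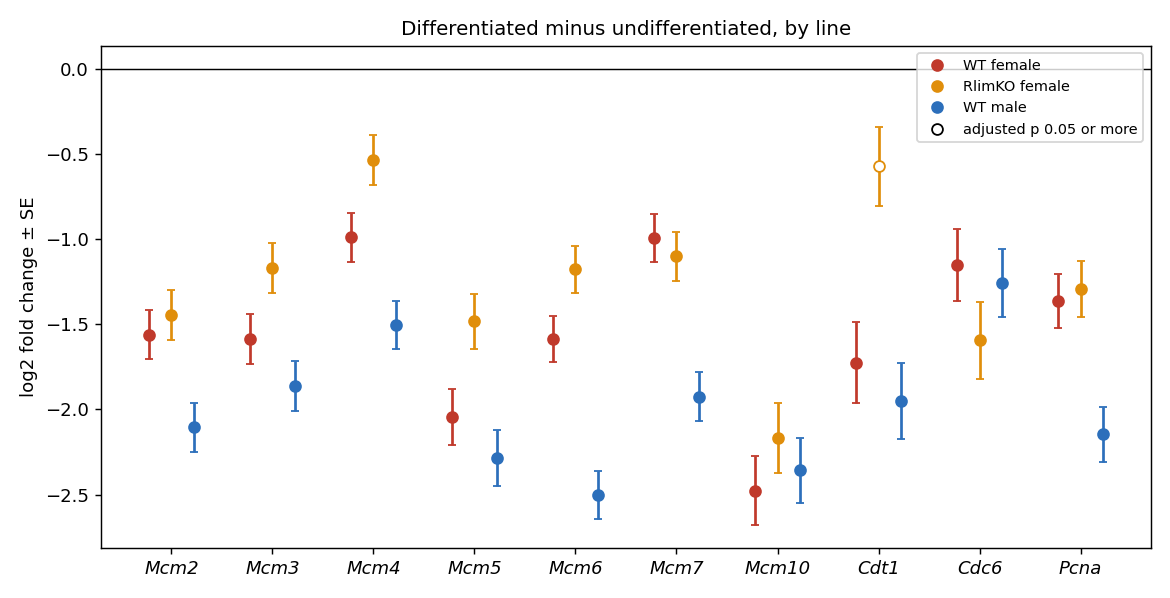
Log2 fold change (edgeR, bars are SE) of each licensing gene between differentiated and undifferentiated cells of the same line, with 2 libraries per group; open points did not pass an adjusted p of 0.05. All 30 points lie below 0, and the only open one is Cdt1 in the RlimKO-labelled line.

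Mcm10 (chromosome 2: 4989714 to 5012791) fell most in both female lines. It had 142 and 99.6 CPM in undifferentiated WT females, 120.3 and 114 CPM in the RlimKO-labelled line and 145 and 136 CPM in males. Differentiated cells had 24.3 and 18.8 CPM, 23.4 and 28.0 CPM, and 26.9 and 27.9 CPM. The 3 differentiated lines thus stood within 18.8 to 28.0 CPM. The log2 fold changes were -2.48 ± 0.20, -2.17 ± 0.21 and -2.36 ± 0.19 (edgeR adjusted p = 2.51e-07, 1.01e-06 and 1.56e-07).

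The loaders differed from each other. Cdc6 (chromosome 11: 98907801 to 98923940) fell in all lines, from 35.2 and 48.1 to 17.8 and 19.9 CPM in WT females, from 46.7 and 43.9 to 16.5 and 13.9 CPM in the RlimKO-labelled line, and from 53.9 and 49.2 to 20.7 and 22.1 CPM in males. On the log2 scale these were changes of -1.15 ± 0.21, -1.59 ± 0.23 and -1.26 ± 0.20 (edgeR adjusted p = 0.000466, 4.96e-05 and 9.85e-05). Of the 10 genes, Cdc6 alone had its most negative value in RlimKO-labelled cells, and no difference in its change between lines passed the test.

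Cdt1 (chromosome 8: 122568015 to 122573554) fell from 81.9 and 72.9 to 26.8 and 19.6 CPM in WT females (log2 fold change of -1.72 ± 0.24, edgeR adjusted p = 3.36e-05). In males it fell from 107 and 89.9 to 18.4 and 31.3 CPM (-1.95 ± 0.22, edgeR adjusted p = 4.89e-06). The RlimKO-labelled line had 72.4 and 77.2 CPM before and 48.9 and 51.4 CPM after differentiation, a log2 fold change of -0.57 ± 0.23 (edgeR adjusted p = 0.0526). The values of the 2 states did not overlap in this line. DESeq2 (adjusted p = 0.0647) and the fit with a replicate block (adjusted p = 0.0584) did not call Cdt1 there either. In edgeR, Cdt1 did pass with RLE scaling (-0.59, adjusted p = 0.0437) and with Rn45s and Lars2 removed (-0.68, adjusted p = 0.0268). It passed with no filter (-0.67, adjusted p = 0.00944) and with a filter of 10 CPM in 2 libraries (-0.66, adjusted p = 0.0263). In a model of only the 4 libraries of this line it passed as well (-0.57, adjusted p = 0.00253). It also passed in 6 of the 12 edgeR fits with 1 library removed, those without either undifferentiated WT female, either differentiated male, undifferentiated male replicate 1 or differentiated WT female replicate 2 (adjusted p from 0.00107 to 0.0342). In the other 6 fits the adjusted p reached 0.175.

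Pcna (chromosome 2: 132249162 to 132253314) had the narrowest relative range of the 10 genes before differentiation. WT females had 128 and 128 CPM, RlimKO-labelled cells 120.3 and 135 CPM, and males 129 and 131 CPM. Differentiated cells had 43.4 and 56.2 CPM, 53.1 and 51.4 CPM, and 29.4 and 29.3 CPM. The males again stood lowest. Pcna fell in every line, with log2 fold changes of -1.36 ± 0.16, -1.29 ± 0.16 and -2.15 ± 0.16 (edgeR adjusted p = 7.95e-06, 1.69e-05 and 7.57e-08). The genome annotation holds the pseudogene copies Pcna-ps1 and Pcna-ps2, and the table has no row for them, so the Pcna counts are uncertain to that extent.

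Per kilobase of the principal transcript, the helicase subunits were similar in level. The highest subunit was 1.97 ± 0.06 times the lowest (mean ± SD, n = 2) in undifferentiated WT females, 2.34 ± 0.22 times in the RlimKO-labelled line and 1.78 ± 0.12 times in males. In WT females the order was Mcm6 (89.5 CPM per kb), Pcna (84.0), Mcm3 (79.2), Mcm5 (77.7), Mcm7 (69.8), Mcm2 (68.5), Mcm4 (45.4), Cdt1 (35.4), Mcm10 (24.8) and Cdc6 (16.3 CPM per kb). The libraries of neighbours overlapped from Pcna down to Mcm2, and those of the other neighbours did not. The loaders and Mcm10 thus stood below all helicase subunits in undifferentiated cells.

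The summed level of the 6 subunits went from 430.2 ± 37.0 to 156 ± 2.08 CPM per kb in WT females, from 417 ± 3.16 to 184 ± 3.63 CPM per kb in the RlimKO-labelled line and from 497 ± 7.69 to 122 ± 1.35 CPM per kb in males. These are ratios of 2.76, 2.26 and 4.08. The males had the highest sum before and the lowest after differentiation, with no overlap of libraries. The sums were not tested, and between undifferentiated WT females and males 0 of the 10 licensing genes were called. As shares of that sum, Mcm4 went from 10.6% to 14.6% in WT females, 9.07% to 14.0% in the RlimKO-labelled line and 12.5% to 17.9% in males. Mcm5 went from 18.0% to 12.1%, 18.8% to 15.1% and 13.1% to 10.8% in the same order. Mcm4 therefore gained and Mcm5 lost share in every line, with no overlap between the states of a line. Mcm6 went from 21.8% to 15.7% in males but from 20.9% to 19.1% and from 19.2% to 19.2% in the female lines. A share can move because of the other subunits, and the shares were not tested.

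**Figure D3:**
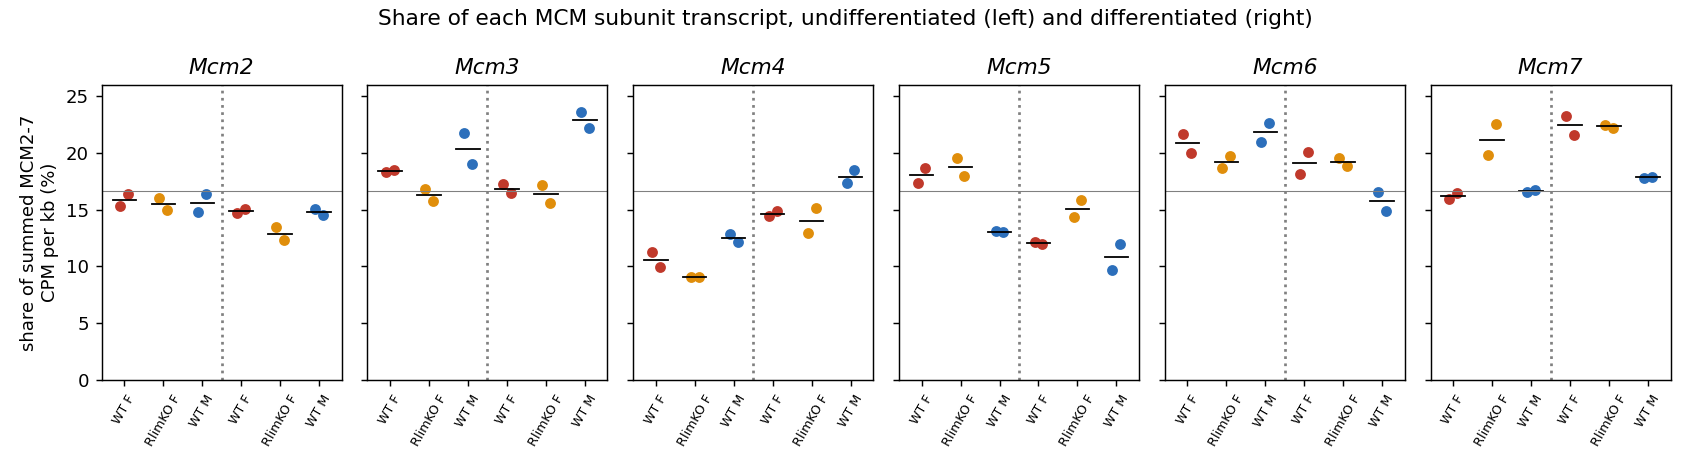
Share of each subunit transcript in the summed CPM per kb of the 6 helicase subunits, in percent, for each library (points) with the group mean of 2 (bars); the grey line marks equal shares, F is female and M is male. Mcm4 is higher and Mcm5 lower right of the dotted line, in differentiated cells, in every line.

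Because the genes fell together, their promoters were searched for E2F-type words. The windows, from RefSeq on GRCm38.p6 (the mm10 sequence), run from 250 bases before to 50 bases after the start, and 9 of the 10 genes had one. The 8-letter words TTTGGCGC, TTTGCCGC, TTTCGCGC and TTTCCCGC, on either strand, were found for 6 of these 9 genes: Mcm3, Mcm5, Mcm6, Mcm7, Cdt1 and Cdc6. Of 9102 tested genes with a window, 4.82% had one. CCAAT, the site of NF-Y, was found for 7 of the 9 and for 43.4% of tested genes, and GGCGGG, an Sp-type site, for 7 of the 9 and for 69.4%. A word may overlap another, and a match describes letters and not binding.

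The stretches below show the words in 5 of these genes, read 5′ to 3′ on the gene's strand, with the E2F-type words in capitals. In Mcm6 a run of overlapping words and a further word lie before the start (chr1:128359725-128359835, minus strand). In Mcm5 the overlapping words also lie before the start (chr8:75109336-75109387, plus strand). In Cdt1 (chr8:122568035-122568064, plus strand), Mcm7 (chr5:138171849-138171878, minus strand) and Mcm3 (chr1:20820263-20820292, minus strand) the word printed lies just after it.
Mcm6: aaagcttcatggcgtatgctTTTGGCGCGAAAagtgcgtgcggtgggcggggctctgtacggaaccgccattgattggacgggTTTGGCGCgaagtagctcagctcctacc
Mcm5: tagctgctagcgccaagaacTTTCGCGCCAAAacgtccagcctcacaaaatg
Cdt1: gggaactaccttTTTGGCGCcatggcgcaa
Mcm7: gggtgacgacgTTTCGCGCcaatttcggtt
Mcm3: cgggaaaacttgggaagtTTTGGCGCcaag

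Of the genes without a word in the window, Mcm2, Mcm10 and Pcna, all 3 fell in every line. No match says only that these letters are not in this window.

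The rest of the replication machinery was examined through lists. Of 22 tested origin recognition and firing factors, 15 fell in WT females, 9 in RlimKO-labelled cells and 16 in males, and none rose (medians of -1.004, -0.56 and -0.98). Orc1, Orc2 and Orc5, subunits of the origin recognition complex, and Dbf4, the activator of the origin-firing kinase Cdc7, fell in all 3 lines. Dbf4 had log2 fold changes of -1.39 ± 0.17, -1.26 ± 0.17 and -1.07 ± 0.16 (edgeR adjusted p = 1.11e-05, 3.74e-05 and 7.17e-05). Those of Orc1 were -1.66 ± 0.24, -0.88 ± 0.25 and -1.81 ± 0.22 (edgeR adjusted p = 4.88e-05, 0.00974 and 9.14e-06). Gmnn, the inhibitor of Cdt1, fell in WT females and males (log2 fold changes of -1.23 and -1.60, edgeR adjusted p = 0.00164 and 9.72e-05). Its change in the RlimKO-labelled line was -0.18 (edgeR adjusted p = 0.61), from 29.2 to 25.1 CPM. Gmnn thus passed the test in WT females and males and not in RlimKO-labelled cells. The same held for Cdc45, Gins1, Mtbp and Mcmbp of this list, so the pattern is not particular to Gmnn. The difference in the change between the female lines was not called for Gmnn (1.05, edgeR adjusted p = 0.359).

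Of 26 fork enzymes and clamp loader subunits, 20 fell in WT females, 16 in RlimKO-labelled cells and 24 in males, and none rose (medians of -1.19, -0.77 and -1.46). Rpa1, a subunit of the single-strand binding protein, had log2 fold changes of -1.45 ± 0.16, -1.73 ± 0.16 and -2.45 ± 0.16 (edgeR adjusted p = 3.93e-06, 8.92e-07 and 1.87e-08). Rfc5, part of the complex that loads Pcna, changed by -1.71 ± 0.16, -1.58 ± 0.17 and -2.23 ± 0.16 (edgeR adjusted p = 8.54e-07, 2.71e-06 and 5.52e-08). Of 8 nucleotide supply genes, 6, 5 and 7 fell and none rose (medians of -1.12, -1.07 and -1.54). Among them Rrm2, a ribonucleotide reductase subunit, changed by -1.89 ± 0.24, -1.87 ± 0.24 and -2.65 ± 0.25 (edgeR adjusted p = 1.46e-05, 2.17e-05 and 6.01e-07).

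Of 17 E2F, RB and DREAM genes, 5, 4 and 7 fell and 1, 2 and 0 rose. The falling share in the female lines was close to the 22.2% and 21.6% of all tested genes, and nothing is read from it. E2f1, an activating E2F, changed by -1.06 ± 0.36, -1.01 ± 0.38 and -1.27 ± 0.31 (edgeR adjusted p = 0.025, 0.0382 and 0.0035), and E2f2 and E2f4 also fell in all 3 lines. E2f6 rose in WT females (1.05 ± 0.32, edgeR adjusted p = 0.0136). E2f7 and Rb1 rose in RlimKO-labelled cells, and E2f7 fell in males. Of 8 genes that act in the degradation of Cdt1 and Cdc6, 4, 3 and 2 fell and 1, 2 and 2 rose. In males these are close to the 25.4% and 28.7% of all tested genes that fell and rose. Dtl, the adaptor that brings Cdt1 to the CUL4 ubiquitin ligase, fell in all 3 lines, from means of 61.9, 63.6 and 88.1 CPM to 30.8, 37.2 and 28.2 CPM (edgeR adjusted p = 0.00309, 0.0193 and 3.36e-05). Cul4a, a scaffold of that ligase, rose in all 3 by 1.01 ± 0.20, 1.05 ± 0.20 and 0.84 ± 0.20 (edgeR adjusted p = 0.000869, 0.000634 and 0.00228). Its paralogue Cul4b went the other way, with changes of -1.54 ± 0.17, -1.04 ± 0.17 and -0.38 ± 0.16 (edgeR adjusted p = 3.59e-06, 0.000138 and 0.0581). Skp1a fell in all 3 lines (-1.45, -1.47 and -1.24). Fzr1 fell in WT females only (-1.24, edgeR adjusted p = 0.000784).

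Of 18 mitosis genes, 16, 12 and 11 fell and none rose, with medians of -0.95, -0.76 and -0.78. Cdc20, the activator of the anaphase-promoting complex, changed by -1.66 ± 0.21, -1.17 ± 0.22 and -1.26 ± 0.20 (edgeR adjusted p = 1.59e-05, 0.000452 and 0.00011). Mki67, a marker of cycling cells, stood at 768, 789 and 681 CPM before and at 513, 600.2 and 549 CPM after differentiation. It fell in both female lines (-0.58 in WT females and -0.39 in RlimKO-labelled cells, edgeR adjusted p = 0.00456 and 0.0391), and its change of -0.31 in males did not pass (edgeR adjusted p = 0.0844). Of 6 tested CDK inhibitors, 5, 4 and 5 rose and none fell, where 26.5%, 26.4% and 28.7% of all tested genes rose. Cdkn1a, which binds Pcna as well as CDKs, rose by 2.30 ± 0.35, 1.15 ± 0.36 and 1.54 ± 0.32 (edgeR adjusted p = 8.48e-05, 0.0177 and 0.001).

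**Figure D4:**
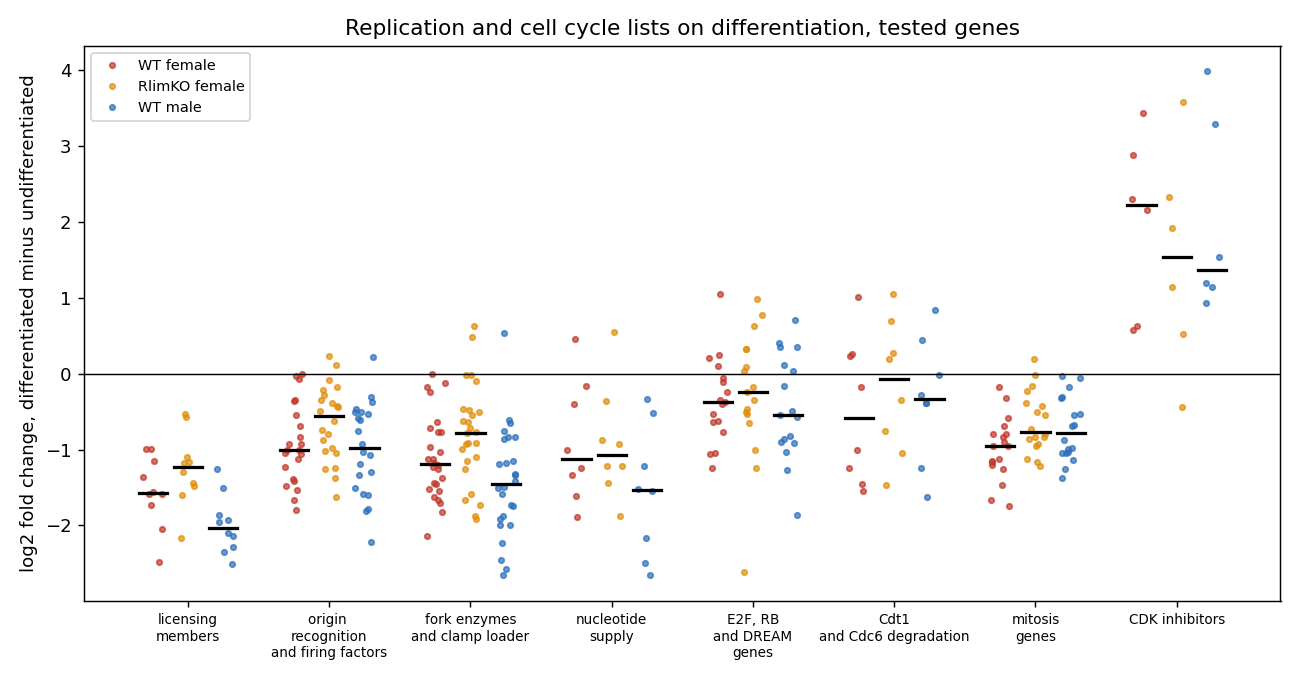
Log2 fold change on differentiation (edgeR) of each tested gene of the licensing group and of 7 other lists, by line; points are genes and black bars are medians. The licensing medians of -1.57, -1.23 and -2.03 are the lowest in each line, and the CDK inhibitor medians lie above 0.

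Cell type markers moved with these falls. Of 10 pluripotent cell markers all 10 fell in each line, and their summed level went from 2071 to 2415 CPM in undifferentiated libraries to 69.1 to 262 CPM in differentiated ones. Of 8 fibroblast and feeder markers 7 rose in each line and 1, Thy1, fell in males, with sums of 347 to 1018 CPM before and 6351 to 15061 CPM after. Lum was at 0 in undifferentiated WT females and Dcn in the undifferentiated RlimKO-labelled line, and none of the 8 was at 0 in differentiated cells. Of 11 tested visceral endoderm markers, 9, 8 and 11 rose and 0, 1 and 0 fell, with sums of 132 to 243 CPM before and 385 to 999 CPM after. Cardiac markers rose for 6, 3 and 6 of 7 (0, 1 and 0 fell), blood and endothelial ones for 5, 5 and 6 of 8 (1 fell in each line), and trophoblast ones for 4 of 5 in each line (0, 1 and 0 fell), again where 26.5%, 26.4% and 28.7% of all tested genes rose. The summed cardiac markers went down in the RlimKO-labelled line, from 120 to 128 CPM before to 59.0 to 63.2 CPM after. They went up in WT females (158 to 203 CPM before, 212 to 242 CPM after) and males (114 to 126 CPM before, 256 to 479 CPM after). Of 5 tested neural markers, 1 rose and 4 fell in each line. The part of cell type in the fall of the licensing genes was not tested.

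The other genes with the most similar pattern across the 12 libraries were Pdcd11, a ribosome biogenesis factor, Adsl, a purine synthesis enzyme, Uba2, a subunit of the SUMO-activating enzyme, Ybx1, an RNA-binding protein, and Cpne5, a copine. Their Pearson correlation with the mean standardised log2 CPM of the licensing genes was 0.993, 0.990, 0.988, 0.988 and 0.987. Predicted genes (Gm and Rik symbols) were left out of this ranking. The libraries form 2 states, which alone gives a high value. Within the 6 undifferentiated libraries the values were 0.93, 0.79, 0.81, 0.67 and 0.83, and within the 6 differentiated ones 0.94, 0.82, 0.74, 0.88 and 0.84. Among these named genes, Pdcd11 thus had the highest value within both states, at 92.9 to 131 CPM before and 39.7 to 54.7 CPM after differentiation. They were picked over all 12 libraries, and no other gene was ranked within the states. Among the 10 genes, the correlation of each with the mean of the other 9 ran from 0.895 for Cdc6 to 0.992 for Mcm2.

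Between the undifferentiated female lines no licensing gene was called (0 of 10 by edgeR, 1 at an unadjusted p below 0.05, 0 by DESeq2), as was 0.242% of all tested genes. The log2 fold changes ran from -0.26 for Mcm4 to 0.34 for Mcm7.

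Between undifferentiated WT females and males also no licensing gene was called (0 of 10 by edgeR, 2 at an unadjusted p below 0.05, 0 by DESeq2), against 6.63% of tested genes. In the undifferentiated RlimKO-labelled line, set against the same male libraries, 2 of 10 were lower, against 5.41% of tested genes: Mcm4 (-0.71 ± 0.14, edgeR adjusted p = 0.00617) and Mcm3 (-0.58 ± 0.14, edgeR adjusted p = 0.0192). Male cells had 331 and 283 CPM of Mcm3, the RlimKO-labelled line 211 and 200.3 CPM and WT females 224 and 256 CPM. The Mcm4 call was lost without either undifferentiated RlimKO library or undifferentiated male replicate 1 (adjusted p up to 0.126). The Mcm3 call was lost without any of these 3, either undifferentiated WT female library or differentiated WT female replicate 2 (adjusted p up to 0.292). With differentiated male replicate 1 or 2 removed, Mcm5 was higher in RlimKO-labelled than in male undifferentiated cells (0.36 and 0.33, edgeR adjusted p = 0.0288 and 0.0423).

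In differentiated cells the licensing genes called against males were higher in the female line compared. Called or not, 4 of the 10 log2 fold changes against males were negative in WT females and 2 in the RlimKO-labelled line. In WT females 3 of 10 were higher and none lower, against 4.67% higher among tested genes: Pcna (0.76 ± 0.16, edgeR adjusted p = 0.0111), Mcm7 (0.69 ± 0.14, edgeR adjusted p = 0.00931) and Mcm6 (0.64 ± 0.14, edgeR adjusted p = 0.0108). The Mcm6 and Mcm7 calls were lost without either differentiated WT female library (adjusted p up to 0.132 and 0.119), and that of Pcna without differentiated WT female replicate 2 (adjusted p = 0.182). In the RlimKO-labelled line, set against the same male libraries, 5 of 10 were higher and none lower, against 5.65% higher among tested genes. They were Mcm5 (1.07 ± 0.16, edgeR adjusted p = 0.00106), Cdt1 (0.99 ± 0.23, edgeR adjusted p = 0.0137), Mcm7 (0.92 ± 0.14, edgeR adjusted p = 0.00128), Mcm6 (0.89 ± 0.14, edgeR adjusted p = 0.00122) and Pcna (0.83 ± 0.17, edgeR adjusted p = 0.00589).

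Of these, Mcm5, Mcm6 and Mcm7 kept their calls whichever of the 12 libraries was removed. Cdt1 was not called without either differentiated RlimKO library (adjusted p up to 0.142), nor Pcna without differentiated RlimKO replicate 2 (adjusted p = 0.0706). These female to male calls used a spread estimated over 12 libraries. When the model held the 4 libraries of a comparison alone, it called 0 of 10 genes in WT females and 0 of 10 in the RlimKO-labelled line (edgeR, with 4 and 5 at an unadjusted p below 0.05). That model called 5 of 12069 and 10 of 11607 genes in all, and the median log2 fold change of the licensing genes was 0.23 and 0.63 in it, against 0.22 and 0.61 with all libraries. Without differentiated male replicate 1, Cdc6 was lower in the RlimKO-labelled line than in males (-0.60, edgeR adjusted p = 0.0486), the one licensing gene called lower in that comparison in any fit with 1 library removed. Cell type markers also differed between the differentiated lines. Against males, WT females had 4 of 10 pluripotent cell markers higher, 1 of 11 visceral endoderm markers higher and 3 lower, 2 of 7 cardiac markers lower, 1 of 8 fibroblast markers lower, 1 of 5 neural markers higher and 1 of 5 trophoblast markers lower. RlimKO-labelled cells had 7 of 7 cardiac markers, 5 of 11 visceral endoderm markers, 2 of 5 trophoblast markers and 1 of 8 blood markers lower than males, and no marker higher. Of all 12814 tested genes, 550 were lower than in males in WT females and 765 in RlimKO-labelled cells. The summed cardiac markers stood at 212 to 242 CPM in WT females, 59.0 to 63.2 CPM in RlimKO-labelled cells and 256 to 479 CPM in males. The summed visceral endoderm markers stood at 560.2 to 569 CPM, 385 to 439 CPM and 641 to 999 CPM, and the pluripotent cell markers at 258 to 262 CPM, 117 to 128 CPM and 69.1 to 212 CPM. The part of these markers in the licensing differences was not tested. In the differentiated cells 5 of 26 fork genes were higher in WT females and 10 of 26 in the RlimKO-labelled line than in males, and none was lower. Of 18 mitosis genes, 0 were called in WT females and 1, Aurka, was lower in the RlimKO-labelled line.

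Cdt1 was the only licensing gene called between the differentiated female lines (1 of 10, against 2.59% of tested genes). It stood at 48.9 and 51.4 CPM in the RlimKO-labelled line and at 26.8 and 19.6 CPM in WT females (1.10 ± 0.24, edgeR adjusted p = 0.0221). The call was lost without any differentiated female library or either undifferentiated WT female library (adjusted p up to 0.308) and was kept in the other 6 fits. Mcm5 had the next largest difference (88.2 and 99.97 against 64.7 and 62.5 CPM, 0.57 ± 0.16, edgeR adjusted p = 0.0813) and was called only without a differentiated male library (lowest adjusted p = 0.0031) among the fits with 1 library removed. Each of the 8 other genes had an adjusted p of at least 0.43. In the same comparison RlimKO-labelled cells had 4 of 10 pluripotent cell markers lower (Pou5f1, Nanog, Esrrb and Tdgf1), 4 of 7 cardiac markers lower, the visceral endoderm markers Afp and Cubn lower and Dab2 higher, the neural marker Nes lower and the trophoblast marker Hand1 higher. Their part in the Cdt1 difference was not tested.

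**Figure D5:**
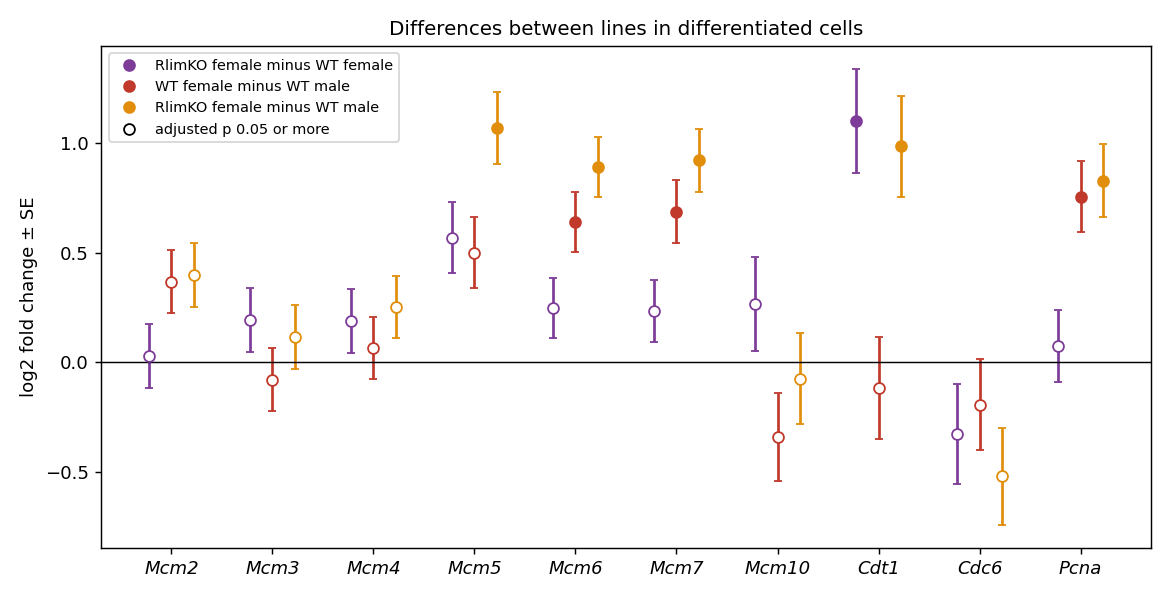
Log2 fold change (edgeR, bars are SE) of each licensing gene between lines in differentiated cells, with 2 libraries per group; filled points passed an adjusted p of 0.05, and both comparisons with males share the same male libraries. The filled points all lie above 0: 1 between the female lines, 3 in WT females and 5 in the RlimKO-labelled line against males.

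The difference in the change itself was tested as an interaction. Mcm6 and Mcm7 fell less in WT females than in males (by 0.92 ± 0.19 and 0.93 ± 0.20 on the log2 scale, edgeR adjusted p = 0.0292 and 0.0348). These are 2 of 10 genes, against 0.882% of tested genes with a more positive change. Mcm6, Cdt1, Mcm4 and Mcm7 fell less in the RlimKO-labelled line than in males, 4 of 10 against 1.51% of tested genes. The differences were 1.33 ± 0.19, 1.38 ± 0.32, 0.97 ± 0.20 and 0.83 ± 0.20 (edgeR adjusted p = 0.00327, 0.0362, 0.0228 and 0.0429). Of these 6 calls only that of Mcm6 in the RlimKO-labelled line was kept whichever library was removed (adjusted p up to 0.0451). The others were lost in 9 or 10 of the 12 fits, with adjusted p up to 0.258. No licensing gene was called between the changes of the female lines (0 of 10 by edgeR, 3 at an unadjusted p below 0.05, 0 by DESeq2), against 0.203% of tested genes, with 1262 of 12814 at an unadjusted p below 0.05. Without differentiated male replicate 1 or 2, 1 licensing gene and 485 or 477 genes in all were called, where the fit of all libraries called 26. The largest such difference was that of Cdt1, 1.15 ± 0.33 (edgeR adjusted p = 0.206).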

How the data were processed

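Total RNA was made into cDNA by template switching, amplified by PCR and tagmented, per the labels' protocols, and no molecular identifiers were described. The authors deposited raw read counts per gene symbol. Per the submitters' processing notes, reads were handled with TopHat2 2.0.12, bcl2fastq 2.16.0.10, edgeR 3.10.0 and HTSeq 0.6.1p1 on mm10. The annotation and the strand setting are not given in the sources used here. Lines that name no gene (45.4% to 53.3% of reads in no feature) were set aside.

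Counts of all 12 libraries were fitted in edgeR 4.0.16 (R 4.3.3) with a mean per group, TMM scaling and the default filter. Log2 fold changes have SEs derived from the F test. CPM are per 1000000 of TMM-scaled library size. Transcript lengths and gene coordinates came from GENCODE M21 (GRCm38), promoters from RefSeq. The protein features planned are not analysed here. The fit was tested on simulated data. In those data each gene had the same dispersion in every group, unlike the differentiated male pair here, so that test does not cover calls against this pair. DESeq2 1.42.0 was an alternative. Members and lists were chosen with earlier results of these data known. All 10 genes are named, and from each list up to 4 genes with the smallest p in WT females. Further list genes were named after their values were seen. These are Gmnn, Cdc45, Gins1, Mtbp, Mcmbp, E2f2, E2f7, Rb1, Dtl, Mki67 and Aurka, and the markers Esrrb, Afp, Thy1, Lum and Dcn.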

Additional observations from a re-analysis of the deposited data

Results flagged for a closer look

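The change on differentiation differed between lines, by the interaction test in edgeR, in 6 cases. Against the male change, it was less negative in WT females for Mcm6 (difference of 0.92) and Mcm7 (0.93), and in the RlimKO-labelled line for Mcm4 (0.97), Mcm6 (1.33), Mcm7 (0.83) and Cdt1 (1.38). Both sets share the male libraries. The differentiated male pair had the largest spread between replicates. Without its replicate 1 or 2, 3 and 3 licensing genes were called in WT females, where all libraries gave 2, and 7 and 6 in the RlimKO-labelled line, where all libraries gave 4. Calls over all genes went from 178 to 1886 and 1209 in WT females and from 334 to 2016 and 1430 in the RlimKO-labelled line. In a model of only the libraries compared, 0 of 10 genes were called in WT females (5 at an unadjusted p below 0.05) and 1 of 10 in the RlimKO-labelled line. That model called 23 of 12622 and 39 of 12460 genes in all, and the median difference of the licensing genes was 0.39 and 0.70 in it, against 0.39 and 0.81 with all libraries.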

How the results depend on the processing

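No call of a licensing gene changed sign under any alternative run. Of 2400 values of single genes under the alternatives, 2261 kept their side of the threshold, 92 lost a call and 47 gained one. When each library was left out in turn, the number of genes that fell on differentiation was 10 to 10 in WT females, 8 to 10 in the RlimKO-labelled line and 10 to 10 in males. Between lines it ran from 0 to 2 (differentiated female lines), 0 to 1 (undifferentiated WT females and males), 0 to 4 (differentiated WT females and males), 0 to 4 (undifferentiated RlimKO-labelled and male) and 3 to 6 (differentiated RlimKO-labelled and male). In the last 2, the highest count includes 1 call opposite to the rest (Mcm5 higher in undifferentiated and Cdc6 lower in differentiated RlimKO-labelled cells) once a differentiated male library is removed. The share of all genes called, against which these counts are read, also depends on that pair. For the differences in change it ran from 0 to 1 (female lines), 0 to 3 (WT females and males) and 1 to 7 (RlimKO-labelled and male).

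A model of only the groups compared called 2 genes between the differentiated female lines, 1 between undifferentiated WT females and males, 0 between differentiated WT females and males, 4 between undifferentiated RlimKO-labelled and male cells, and 0 between the differentiated ones. For the differences in change it called 1 (female lines), 0 (WT females and males) and 1 (RlimKO-labelled and male). It also moved the calls over all genes in the same order from 332 to 2154, 849 to 2016, 1149 to 5, 1282 to 2383, 1489 to 10, 26 to 530, 178 to 23 and 334 to 39, and between the undifferentiated female lines from 31 to 303. With no filter 1 gene was called between undifferentiated RlimKO-labelled and male cells. With Rn45s and Lars2 removed, 2 differed in change between the RlimKO-labelled line and males. With differentiated RlimKO replicate 1 and differentiated male replicate 2 removed, the libraries with the highest and lowest share of Rn45s (an alternative chosen after seeing the data), 2 were called between the differentiated female lines, 2 between undifferentiated WT females and males, and 1 in the change between female lines. The cause was not tested.

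Removing Rn45s and Lars2 moved the median of all genes on differentiation of the RlimKO-labelled line from 0.0957 to -0.0124, and that of the licensing genes from -1.23 to -1.34. It moved the share of calls that were higher from 47.1% to 57.9% (undifferentiated WT females against males), 45.9% to 57.7% (RlimKO-labelled against males), 63.5% to 52.4% and 58.1% to 40.3% (changes of these lines against males). The replicate numbers do not pair samples (correlations of replicate deviations from -0.0663 to 0.103), and with the replicate block the counts of licensing genes were 10, 9 and 10 on differentiation and were the same as without it in the other comparisons. Amplification duplicates could not be removed, and depth of 31 to 1469 counts per gene and library limits the smallest differences.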
